A study of Homo sapiens with 7 samples.

Results

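The libraries compared were those of HEK293 cells in which the nuclear poly(A) polymerase Star-PAP (siStar-PAP, labelled siStarPAP) or PAPα (siPAPα, labelled siPAPa) had been knocked down with siRNA. They make up 2 of the 7 libraries of the series, and each stands for 1 sample. Both were made by 3′READS, which captures the 3′ end of polyadenylated RNA so that each read marks the cleavage and polyadenylation site (PAS) of a transcript. Members were chosen by the labels, and the siStar-PAP read count was set directly against the siPAPα read count, with each scaled to its own total of reads at sense PASs. The other 5 libraries were a control siRNA library (siCtrl), a PAPγ knockdown (siPAPγ) and a knockdown of PAPα and PAPγ together (siPAPα+γ), all by 3′READS, and a batch 2 pair of a control and a Star-PAP knockdown by the related protocol 3′READS+. HEK293 is an established human embryonic kidney line, all 7 libraries are from it, and siRNA knockdown leaves some of the enzyme in place.

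Poly(A) polymerases add the poly(A) tail once the cleavage machinery has cut the nascent RNA at a PAS. PAPα, encoded by PAPOLA, is the canonical nuclear enzyme and PAPγ, encoded by PAPOLG, is its close relative. Star-PAP, encoded by TUT1, is a non-canonical enzyme of the same superfamily of nucleotidyltransferases. It is stimulated by phosphoinositides and is also known as the terminal uridylyltransferase of U6 snRNA. Most genes hold several PASs, and the choice among them, alternative polyadenylation (APA), sets the length of the 3′UTR or, when an intronic PAS is used, truncates the transcript. Comparing the knockdowns with each other asks which transcripts depend more on Star-PAP and which more on PAPα. A value above 0 on the log2 scale below means a higher level in siStar-PAP, so that the transcript was lower in siPAPα.

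The siStar-PAP library held 11120874 sense reads and the siPAPα library 16191098, at 51882 sense PASs in 15468 genes. With 1 library for each knockdown no test of the direct comparison was possible, and 95% intervals given with ratios and shares are exact binomial ones that cover counting error only. The targets of the siRNAs were measured first. TUT1, with a single PAS, had 2 reads in siStar-PAP against 228 in siPAPα, and siCtrl and siPAPγ had 83 each. With 3 reads standing for the 2, its log2 ratio of siStar-PAP to siPAPα was −5.71, and the counting interval was −9.35 to −4.42. PAPOLA had 44 reads in siStar-PAP against 12 in siPAPα, with 71 in siCtrl and 66 in siPAPγ, a log2 ratio of 2.42 (1.47 to 3.47). Each target was thus lowest in the library labelled as its knockdown. Scaled to totals, the log2 ratio of PAPOLA to siCtrl was −3.57 in siPAPα and −1.16 in siStar-PAP, so PAPOLA was below siCtrl in both. PAPOLG had 28 reads in siStar-PAP and 36 in siPAPα, with a log2 ratio of 0.18 (−0.59 to 0.93). With 5 reads in siCtrl and 15 in siPAPγ, its log2 ratio to siCtrl was 2.02 in siStar-PAP and 1.84 in siPAPα. Of the HEK293 markers all 6 were measured, and NEFM, NEFL and INA, which are neuronal intermediate filament genes, were more than 2-fold lower in siStar-PAP (−3.06, −1.72 and −1.02), of which INA was within 2-fold when TMM factors, which centre a trimmed mean of the gene ratios, replaced the totals. KRT8, KRT18 and VIM were within 2-fold. In bulk RNA, fewer cells that express a gene and less of its RNA per cell cannot be told apart. Of 9 markers of other cell types 7 were not listed, and COL1A1 and GFAP had 0 reads in siStar-PAP and 2 and 9 in siPAPα, a summed level of 0 and 0.679 RPM (reads scaled to the sense total of the library, per 1e6).

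The sequences at the PASs that the results turn on are printed here, each as the 30 bases of hg19 that end at the listed PAS, 5′ to 3′ on the transcribed strand. Capitals mark the polyadenylation signal AATAAA or ATTAAA, the hexamer bound by the cleavage machinery. The first group holds genes whose level was lower in siStar-PAP: ARMC5 at chr16:31478457-31478486 (plus strand), TAF15 at chr17:34174209-34174238 (plus), SYP at chrX:49044268-49044297 (minus), and the proximal and distal PASs of EIF4A1 at chr17:7481916-7481945 and chr17:7482295-7482324 (plus), each in an annotated 3′UTR.
ARMC5: ggaattgagATTAAAcaatttggagttgga
TAF15: actgcAATAAAggctgcttgtttttgtgga
SYP: cctctcccaAATAAActccttaaccaccta
EIF4A1, proximal: tttgAATAAAtgtcactttttgaggcaaaa
EIF4A1, distal: aattctgAATAAAatgacttggaaactgcc
The second group holds sites whose level was higher in siStar-PAP: the upstream PAS of PPP1R7 at chr2:242106560-242106589, beside its main PAS in the 3′-most exon at chr2:242122410-242122439, and the PASs of TEN1 and SENP3 (at chr17:7475258-7475287), all on the plus strand. The upstream PAS of PPP1R7 is intronic in the deposited table and in the 3′UTR of a shorter transcript in GENCODE.
PPP1R7, upstream: aagacaAATAAAagactttttctcattcaa
PPP1R7, 3′-most exon: gccgttgcaATTAAAtcttgccacactgtc
TEN1: gAATAAAggcccagggggcgtgctcttgaa
SENP3: gtcAATAAAggatcctttgttgatacgtaa
The third group holds PASs whose share of the reads of a gene differed between the libraries: the intronic and 3′-most exon PASs of CPT1A at chr11:68574648-68574677 and chr11:68522357-68522386 (minus), those of STX3 at chr11:59556649-59556678 and chr11:59570150-59570179 (plus), the intronic PAS of SPPL2B at chr19:2329455-2329484 (plus), 2 neighbouring PASs of GNL3L at chrX:54589304-54589333 and chrX:54589354-54589383 (plus), and the proximal and distal PASs of HNRNPA0 at chr5:137088306-137088335 and chr5:137087262-137087291 (minus).
CPT1A, intron: attcatcaAATAAAagtgctgtccatccgg
CPT1A, 3′-most exon: tatcattAATAAAacattaaccccagtcta
STX3, intron: tgagaATTAAAatgtgctttcagctgctga
STX3, 3′-most exon: AATAAAaatgactttgtattgattgtgaaa
SPPL2B, intron: agagtgtcaggttctagtggggacagtcta
GNL3L, upstream of the pair: agcgtgATTAAAaccctatgcaggcccttt
GNL3L, downstream of the pair: cttaacaaaggaagattgattaagccccta
HNRNPA0, proximal: atttttAATAAAtcattgtgtttgaccgta
HNRNPA0, distal: gatatcacaAATAAAgaattcaattcttta
Neither signal lies in these bases of the SPPL2B intronic PAS or of the downstream GNL3L PAS. The other sites shown carry 1 of the signals.

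Of 10688 genes with at least 50 reads over both libraries, 659 (6.17%) were more than 2-fold higher and 1860 (17.4%) more than 2-fold lower in siStar-PAP than in siPAPα. The median log2 ratio was −0.24, so that the typical gene was somewhat lower in siStar-PAP at equal totals. Part of the imbalance followed the choice of centre. Relative to that median, 1047 genes were higher and 1223 lower, and the lower genes fell from 73.8% to 53.9% of all genes past 2-fold. The tails stayed uneven at equal totals: 94 genes were more than 4-fold higher and 354 more than 4-fold lower, and past 8-fold there were 11 and 100.

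**Figure D1:**
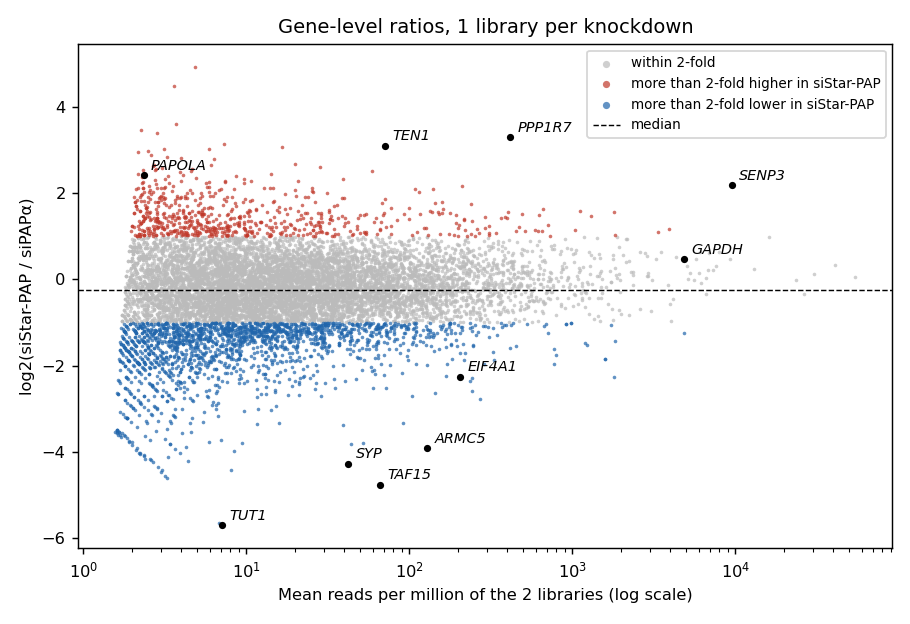
Log2 ratio of siStar-PAP to siPAPα for each of 10688 genes (points) against the mean RPM of both libraries on a log axis. The dashed line is the median of −0.24, and points past 2-fold are coloured. TUT1, TAF15, SYP and ARMC5 lie in the lower tail, and PPP1R7 and TEN1 in the upper tail.

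Genes were ranked among those with at least 200 reads over both libraries, with 3 reads standing for any smaller count, and the 10 lowest, which include TUT1, came from unrelated pathways. MMP24, a membrane-type matrix metalloproteinase, had 0 reads in siStar-PAP against 220 in siPAPα, with 8 in siCtrl and 16 in siPAPγ. With 3 reads standing for the 0, its log2 ratio was −5.65, and the upper end of the counting interval was −5.34. TAF15, an RNA-binding protein of the FET family, had 52 reads in siStar-PAP against 2064 in siPAPα, with 450 in siCtrl and 962 in siPAPγ, and its log2 ratio was −4.77 (−5.19 to −4.37). TAF15 was low in siStar-PAP and high in both PAP knockdowns relative to siCtrl. SYP, the synaptic vesicle protein synaptophysin, had 46 reads in siStar-PAP against 1302 in siPAPα, with 72 in siCtrl and 88 in siPAPγ, and a log2 ratio of −4.28 (−4.74 to −3.86). ARMC5, an adaptor of a cullin ubiquitin ligase, had 178 against 3925, with 130 in siCtrl and 1286 in siPAPγ, and a log2 ratio of −3.92 (−4.15 to −3.70). ARMC5 was at 16.0 RPM in siStar-PAP and 16.1 RPM in siCtrl, and at 242 RPM in siPAPα and 148 RPM in siPAPγ. SYP was at 4.14 RPM in siStar-PAP, 8.94 RPM in siCtrl and 80.4 RPM in siPAPα. For ARMC5 the siPAPα library was therefore the one far from siCtrl, while SYP was below siCtrl in siStar-PAP and further above it in siPAPα.

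The other genes of the 10 lowest were MORF4L1, a chromodomain protein of histone acetyltransferase complexes (8 reads in siStar-PAP and 249 in siPAPα, log2 ratio −4.42), the synaptic scaffold-binding gene ProSAPiP1 (11 and 255, −3.99), the LIM homeobox transcription factor LHX2 (65 and 1332, −3.82), the mitochondrial rRNA methyltransferase MRM1 (14 and 285, −3.81) and KIAA0284 (78 and 1581, −3.80). MORF4L1 was at 0.719 RPM in siStar-PAP, 5.46 RPM in siCtrl and 15.4 RPM in siPAPα. MRM1 was at 1.26, 12.3 and 17.6 RPM in that order. These 2 genes were thus below siCtrl in siStar-PAP and above it in siPAPα.

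At the other end of the genes with 200 reads, PPP1R7, a nuclear regulatory subunit of protein phosphatase 1, had 8439 reads in siStar-PAP against 1250 in siPAPα, with 5312 in siCtrl and 2357 in siPAPγ, and a log2 ratio of 3.30 (3.21 to 3.38). TEN1, a subunit of the telomeric CST complex, had 1416 against 240, with 843 in siCtrl and 284 in siPAPγ, and a log2 ratio of 3.10 (2.90 to 3.31). SGK196, the protein O-mannose kinase, had 331 against 57, with 228 in siCtrl and 311 in siPAPγ, and a log2 ratio of 3.08 (2.67 to 3.51). PPP1R7 and TEN1 were low in both siPAPα and siPAPγ, whereas SGK196 was low in siPAPα and near siCtrl in siPAPγ. The remaining genes of this end were TPPP, which promotes tubulin polymerization (383 reads in siStar-PAP and 87 in siPAPα, log2 ratio 2.68), the endosomal adaptor TOM1L1 (546 and 130, 2.61), AMDHD2 of amino sugar metabolism (1126 and 288, 2.51), BANF1, which binds DNA at the nuclear envelope (267 and 71, 2.45), the stress-induced NUPR1 (162 and 45, 2.39), the mannose 6-phosphate receptor M6PR (181 and 52, 2.34) and CCDC85B (725 and 211, 2.32). All 10 were between 5.00-fold and 9.83-fold higher in siStar-PAP.

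**Figure D2:**
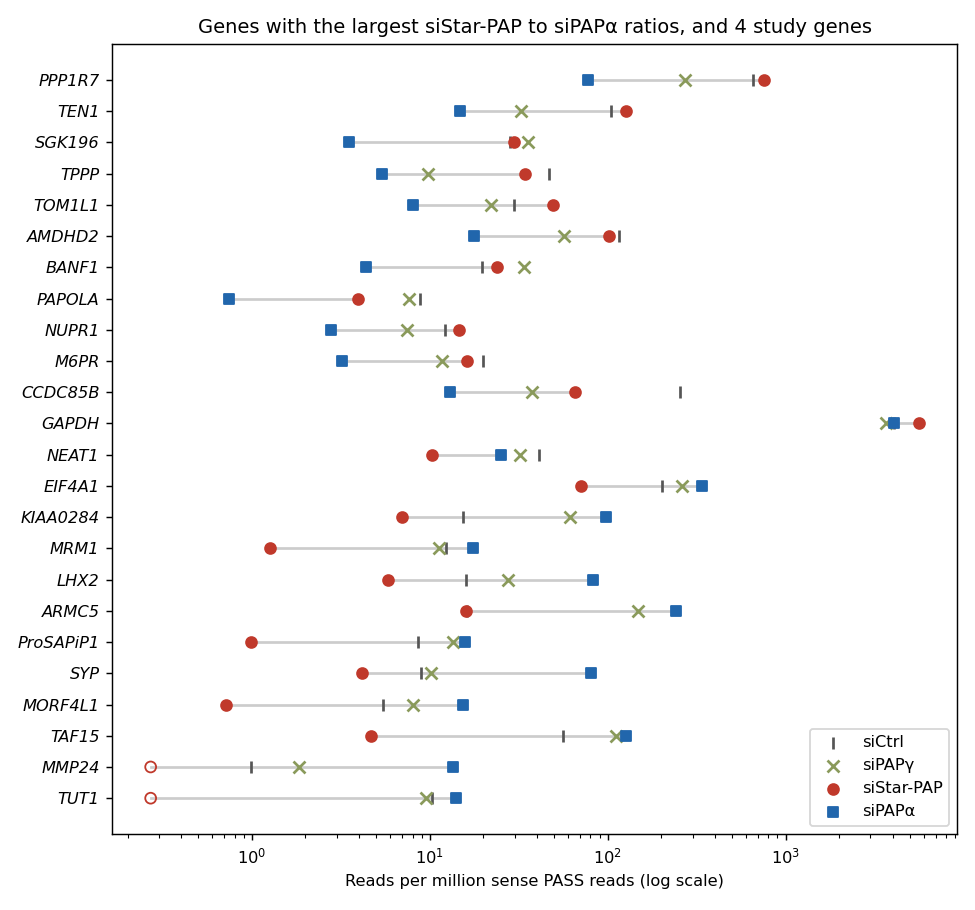
Level in RPM (log axis) of the 10 genes with the largest ratio in each direction among those with at least 200 reads over both libraries, and of PAPOLA, EIF4A1, NEAT1 and GAPDH, with 1 point per library. Red circles are siStar-PAP, blue squares siPAPα, grey bars siCtrl and green crosses siPAPγ, and open circles stand for counts under 3 drawn at 3 reads. For the higher genes the blue square lies left of the grey bar, and for SYP and ARMC5 it lies far to the right.

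Set beside siCtrl, which these ratios share, the 659 higher genes had a median log2 ratio of −1.41 in siPAPα, −0.51 in siPAPγ and 0.07 in siStar-PAP. The 1860 lower genes had medians of 0.47, 0.10 and −1.05 in that order. Both sets were chosen by the ratio of siStar-PAP to siPAPα, so a gap between the medians of these libraries follows from that choice. By these medians the higher genes were low in siPAPα, and the lower genes were low in siStar-PAP and somewhat high in siPAPα. In siStar-PAP the higher genes also lay above the median of all genes (0.07 against −0.36). The medians over all 10688 genes were −0.09, −0.05 and −0.36.

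Among genes that the study examined singly, EIF4A1, the helicase of the translation initiation complex, had 790 reads in siStar-PAP against 5515 in siPAPα, with 1634 in siCtrl and 2270 in siPAPγ. It was 4.79-fold lower in siStar-PAP than in siPAPα (log2 ratio −2.26, −2.37 to −2.15). NEAT1, the scaffold RNA of paraspeckles, had 115 against 405, with 330 in siCtrl and 280 in siPAPγ, and a log2 ratio of −1.27 (−1.59 to −0.97). CHAF1A, a chromatin assembly subunit, was within 2-fold at −0.60 (−0.76 to −0.44), as was GPBP1 at −0.49 (−0.55 to −0.43). CYTH2 had 131 and 188 reads and a log2 ratio of 0.02 (−0.31 to 0.35), and GCLC, the catalytic subunit of glutamate cysteine ligase, had 324 and 414 reads and one of 0.19 (−0.03 to 0.40). The counting intervals of CYTH2 and GCLC include 0. For EIF4A1, NEAT1, CHAF1A and CYTH2 the study reported usage of the distal PAS relative to a reference region of the gene. The ratios here sum all PASs of a gene and are not a measure of that usage. GAPDH, a glycolytic enzyme, was at 5625 RPM in siStar-PAP, 4075 RPM in siPAPα and 4059 RPM in siCtrl, a log2 ratio of 0.47.

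Among the genes tested, the ratio also varied with the level of the gene, taken from siCtrl and siPAPγ only. Of the 2672 genes of lowest level 10.4% were more than 2-fold higher and 27.3% lower in siStar-PAP, and of the 2672 of highest level 4.53% and 9.58%. The median log2 ratio was −0.35 in the former and −0.13 in the latter. Counts are fewer at low level, and the part of counting error in this spread was not tested. The genes tested were also chosen by their reads summed over siStar-PAP and siPAPα. A gene of low level in siCtrl and siPAPγ could thus enter by being high in either compared library. The part of this selection in the calls at low level was not tested, so a dependence on level itself cannot be read from these shares. The 242 genes with non-coding RefSeq transcripts had a median of −0.48, with 26.0% more than 2-fold lower, and the 10446 genes with mRNA transcripts a median of −0.23, with 17.2% lower. The 26.0% was near the 27.3% of the genes of lowest level. Levels were not compared between these classes, and the part of level in their difference was not tested.

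Gene lists were read against the background of all genes tested, of which 6.17% were higher and 17.4% lower. Of the enzymes that tail RNA, 8 were measured and 5 passed 2-fold in either direction, as did 23.6% of all genes, of which TUT1 and PAPOLA are the targets. The cytoplasmic poly(A) polymerase PAPD4 (82 reads in siStar-PAP and 269 in siPAPα, −1.17, and −0.97 with TMM factors) and the non-canonical PAPD7 (32 and 122, −1.39) were lower in siStar-PAP, and the uridylyltransferase ZCCHC11 was higher (118 and 68, 1.34). Of 17 cleavage and polyadenylation factors 1 was higher and 2 lower. The scaffold subunit CPSF1 had 87 reads in siStar-PAP and 473 in siPAPα (−1.90), the GU-rich element binder CSTF2 had 82 and 308 (−1.37), and the nuclear poly(A)-binding protein PABPN1 had 40 and 28 (1.06). The other 14 factors were within 2-fold, and the median of the list, −0.21, was 0.03 above that of all genes. Of 6 Star-PAP kinases and partners 0 were higher and 2 lower, the splicing regulator RBM10 (−1.24) and the kinase CSNK1E (−1.04, and −0.84 with TMM factors).

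Of 16 genes of cholesterol synthesis and uptake 7 were lower and 0 higher, with a median of −0.94. This count depended on the scaling: with TMM factors 2 of 16 (12.5%) were lower, as were 12.3% of all genes, and DHCR7, FDFT1 and SQLE were within 2-fold. The median of the list was 0.71 below that of all genes under either scaling. The lower members included LSS, which closes the sterol ring (40 reads in siStar-PAP and 227 in siPAPα, −1.96), CYP51A1 (29 and 112, −1.41), DHCR7 (516 and 1714, −1.19), FDFT1 (1238 and 3876, −1.10) and SQLE (261 and 764, −1.01). Not all of the pathway moved, as FDPS was at 0.50 and HMGCS1 at 0.46. DHCR7 had 266 reads in siCtrl and was high in siPAPα.

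Of 20 translation initiation and elongation factors 1 was higher and 5 lower. The lower members included the scaffold EIF4G1 (76 reads in siStar-PAP and 1158 in siPAPα, −3.39), EIF3B (4 and 58, −3.32) and EIF4A1, and the higher one was EIF4A3 of the exon junction complex (437 and 265, 1.26). Of 22 heat shock proteins and chaperones 0 were higher and 4 lower (2 lower with TMM factors), with HSPA1A at −1.43 and HSPA1B at −1.41. These 2 genes are near-identical copies, so their reads can be divided only where the sequences differ. Of 15 oxidative stress genes 0 were higher and 2 lower, the autophagy receptor SQSTM1 (938 and 4046, −1.57) and the peroxiredoxin PRDX1 (1423 and 5915, −1.51). Of 11 integrated stress response genes ASNS was higher (1.34) and PSAT1 lower (−2.16), both enzymes of amino acid synthesis. Of 9 long non-coding RNAs 0 were higher and 3 lower, MALAT1 (5 and 73, −3.33), GAS5 (239 and 1233, −1.83) and NEAT1, and the median of the list was −0.55.

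Replication-dependent histone genes, whose main mRNAs end without a poly(A) tail, were the list with the largest share of higher members among those tested. The list holds 47 genes, 10 reached 50 reads, and of these 5 were higher and 0 lower. Reads were summed over both libraries for this minimum, so a gene could enter by being high in either. Members under the minimum have no call, and the part of this selection in the split was not tested. HIST1H2AH fell within 2-fold with a read added to each count or with siPAPα thinned to the reads of siStar-PAP. The other higher members stayed past 2-fold under these settings. HIST1H2AE had 89 reads in siStar-PAP and 22 in siPAPα (log2 ratio 2.56), and HIST1H2BD had 143 and 55 (1.92). These genes also share near-identical copies. Of 8 immediate early genes 0 passed 2-fold in either direction, and 7 lay above the median of all genes, with JUNB at 0.71 and FOSB at 0.70. Of 17 DNA replication genes 1 was higher, RFC4 (1.19), and 1 lower, the ribonucleotide reductase subunit RRM2 (−1.46).

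The large lists of housekeeping genes had shares nearer the background. With TMM factors that background was 9.17% of all genes higher and 12.3% lower. Of 75 cytosolic ribosomal protein genes 4 were higher and 8 lower (median −0.14), against 5 and 4 with TMM factors, with RPS24 (2.07) and RPL36 (1.44) at one end and RPLP0 (−2.20) and RPL17 (−1.66) at the other. Processed pseudogenes of these genes can draw off reads. Of 73 mitochondrial ribosomal protein genes 5 were higher and 8 lower (median −0.21), with MRPL4 at 2.04 and MRPL39 at −1.98. Of 77 oxidative phosphorylation genes 4 were higher and 9 lower (median −0.10), against 6 and 6 with TMM factors: the complex I subunits NDUFA1 (1303 reads in siStar-PAP and 599 in siPAPα, 1.66) and NDUFB2 (767 and 7681, −2.78) went opposite ways. Of 173 zinc finger genes of chromosome 19, 10 were higher and 38 lower (median −0.39), against 16 and 29 with TMM factors. They ranged from ZNF428 (2.02) and ZNF865 (1.79) to ZNF91 (−3.36) and ZNF559 (−3.55).

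At the level of PASs, 14655 sites had more than 50 reads, and 1451 (9.9%) were more than 2-fold higher and 3358 (22.9%) lower in siStar-PAP. The direction differed by region. Of 1188 intronic PASs 349 were higher and 220 lower, with a median log2 ratio of 0.26. Of 13364 PASs in 3′-most exons 1079 were higher and 3120 lower, with a median of −0.30. Of 103 PASs in upstream exons 23 were higher and 18 lower. Within 3′-most exons the last of several PASs had a median of −0.40, the first −0.21 and sites without a second PAS in the exon −0.27.

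A change in the level of a PAS can come from the whole gene or from a shift between its PASs, so the share of the reads of the gene at each PAS was compared. In 5708 genes with at least 2 PASs and 50 reads in each library there were 24266 PASs, of which 1000 (4.12%) had a share at least 20 percentage points higher in siStar-PAP and 1135 (4.68%) a share that much lower. They lay in 1425 of the genes compared. Of these genes 213 (14.9%) also passed 2-fold at the level of the gene, as did 853 (14.9%) of all 5708. Of 5342 intronic PASs 326 (6.10%) were higher in share and 109 (2.04%) lower. Of 18653 PASs of 3′-most exons 656 (3.52%) were higher and 1021 (5.47%) lower.

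With a minimum of 200 reads of the gene per library, the largest gain was at an intronic PAS of SPPL2B, an intramembrane protease, which held 72.8% of the 305 reads of the gene in siStar-PAP (95% Clopper-Pearson interval 67.4 to 77.7) and 11.7% of 248 in siPAPα (7.97 to 16.4). It held 22.4% in siCtrl and 24.7% in siPAPγ, so siStar-PAP was the library far from siCtrl. STX3, a syntaxin of apical membrane fusion, had 85.3% of its reads at the intronic PAS in siStar-PAP and 26.4% in siPAPα, and 40.7% in siCtrl. Its main PAS in the 3′-most exon held 7.37% and 51.6%. CPT1A, the carnitine palmitoyltransferase that admits fatty acids to mitochondria, had 70.7% at the intronic PAS in siStar-PAP and 21.2% in siPAPα, and the PAS of its 3′-most exon held 18.7% and 77.2%. In CPT1A siCtrl lay between, at 57.6% and 41.5%. TATDN3 had 77.0% and 29.9% at an intronic PAS, and the transcription factor TCFL5 had 72.3% and 16.0% at a PAS in an upstream exon. Of the 8 largest gains 5 were upstream of the 3′-most exon. Of all 24266 PASs compared in share, 5342 were intronic and 271 in upstream exons.

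Among the largest losses, GNL3L, a nucleolar GTPase, had 3.65% of its reads at the downstream of the 2 neighbouring PASs in siStar-PAP (1.96 to 6.16) and 57.3% in siPAPα (52.2 to 62.2). Of this PAS siCtrl had 1.00% and siPAPγ 50.3%, so siStar-PAP was near siCtrl and both PAP knockdowns were far from it. The upstream PAS of the pair had 79 of the 356 reads of the gene in siStar-PAP and 14 of 393 in siPAPα. Other PASs of GNL3L held the rest of the reads, so the pair did not simply exchange shares. ADCY3, an adenylyl cyclase, split the same way: the distal of its 2 PASs held 11.9% in siStar-PAP, 64.4% in siPAPα, 6.81% in siCtrl and 60.4% in siPAPγ. PSEN2, a subunit of γ-secretase, had 35.1% at its distal PAS in siStar-PAP and 87.0% in siPAPα, and CBX6, a Polycomb protein, had 35.2% and 89.4%. In HNRNPA0, an hnRNP, the order along the 3′UTR was the reverse: the proximal PAS held 22.4% in siStar-PAP and 71.7% in siPAPα, and the distal PAS 62.0% and 23.8%.

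The ribosomal protein gene RPL3 held 84.9% at 1 PAS in siStar-PAP and 36.7% in siPAPα. Its other PAS lies outside genes in GENCODE, so its assignment to RPL3 is uncertain. The histone demethylase gene KDM5C held 63.1% and 16.1% at a PAS of its 3′-most exon.

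**Figure D3:**
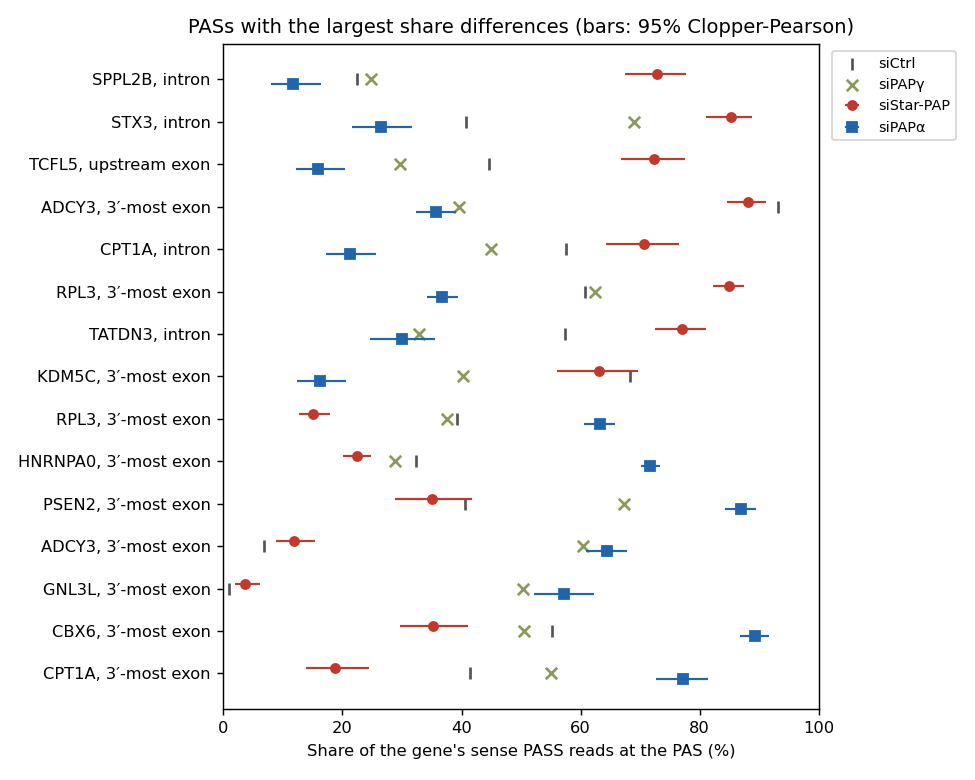
Share of the reads of the gene (%) at the 8 PASs with the largest gain and 7 of the 8 with the largest loss in siStar-PAP, for genes with 200 or more reads in both libraries. Red circles (siStar-PAP) and blue squares (siPAPα) carry 95% Clopper-Pearson bars, and grey bars and green crosses are siCtrl and siPAPγ. The intervals of the knockdowns do not overlap at these sites, and green crosses lie beside the blue squares for GNL3L and ADCY3.

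In EIF4A1 both the level and the share moved. The proximal PAS had 143 reads in siStar-PAP and 156 in siPAPα, a log2 ratio of 0.42 (0.08 to 0.75), and the distal PAS had 647 and 5359, a log2 ratio of −2.51 (−2.63 to −2.39). The share of the proximal PAS was 18.1% in siStar-PAP and 2.83% in siPAPα. The deficit of EIF4A1 in siStar-PAP was thus at its distal PAS. At the level of the gene PPP1R7 differed in the opposite direction to EIF4A1. Its upstream PAS had 8112 reads in siStar-PAP and 615 in siPAPα (4.26, 4.14 to 4.38), and the main PAS of its 3′-most exon had 238 and 485 (−0.49, −0.72 to −0.26). In both genes the more upstream of these PASs held a larger part of the reads in siStar-PAP than in siPAPα.

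SENP3, a SUMO protease, ends just upstream of EIF4A1 on the same strand, and its single PAS was among the most abundant of the libraries. It had 174704 reads in siStar-PAP against 55997 in siPAPα, with 261455 in siCtrl and 167741 in siPAPγ, and at 15710 and 3459 RPM its log2 ratio was 2.18. The neighbours SENP3 and EIF4A1 therefore differed in opposite directions.

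For APA within the 3′-most exon, the log2 ratio of distal to proximal reads was taken at the 2 most used PASs of 5960 genes, and the siPAPα value was subtracted from the siStar-PAP value (RED). Distal usage was higher in siStar-PAP, by more than 1, in 1354 genes (22.7%) and lower in 1869 (31.4%), with a median RED of −0.20. The median depended on the distance between the PASs. It was −0.08 for pairs under 100 nt apart, 0.01 from 100 nt, −0.19 from 300 nt, −0.40 from 1000 nt and −0.26 from 3000 nt, each class ending where the next begins. For pairs with a minimum of 200 reads per library, the genes of the largest RED had no reads at 1 of the PASs in 1 library. NIPBL, the cohesin loader, had 0 proximal and 417 distal reads in siStar-PAP and 98 and 900 in siPAPα (RED 6.51), and PRDM15 had 0 and 283 against 41 and 356 (6.04). PECR, a peroxisomal enoyl-CoA reductase, had 443 proximal and 0 distal reads in siStar-PAP and 421 and 38 in siPAPα (−6.34), and BAG4 had 17 and 188 against 0 and 425 (−6.30). These values depend on the 0.5 read added to each count. GCDH (6.50), RRM1 (5.80) and the overlapping genes PAM16 and CORO7-PAM16, which share their PASs (−6.31), were the others.

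PASs upstream of the 3′-most exon, in introns and upstream exons, held 4.94% of the sense reads in siStar-PAP and 3.65% in siPAPα. The other libraries held 4.83% (siCtrl), 4.03% (siPAPγ), 3.63% (siPAPα+γ), 4.76% (siCtrl, batch 2) and 4.58% (siStar-PAP, batch 2). The 2 libraries with PAPα knocked down were the lowest of the 7. In 2545 genes with an upstream PAS and at least 50 reads in each library, the upstream share was at least 10 points higher in siStar-PAP in 782 (30.7%) and that much lower in 196 (7.7%), with a median difference of 4.85 points. Besides SPPL2B, STX3 and CPT1A, the mitochondrial ribosomal protein gene MRPS11 had 67.8% of its reads upstream in siStar-PAP and 13.6% in siPAPα. A lower upstream share in siStar-PAP was found in THOC1 of the mRNA export complex THO (25.6% in siStar-PAP and 63.6% in siPAPα), in the amino acid transporter SLC36A4 (46.0% and 82.7%) and in VPS45, which acts in vesicle fusion (1.90% and 37.0%).

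**Figure D4:**
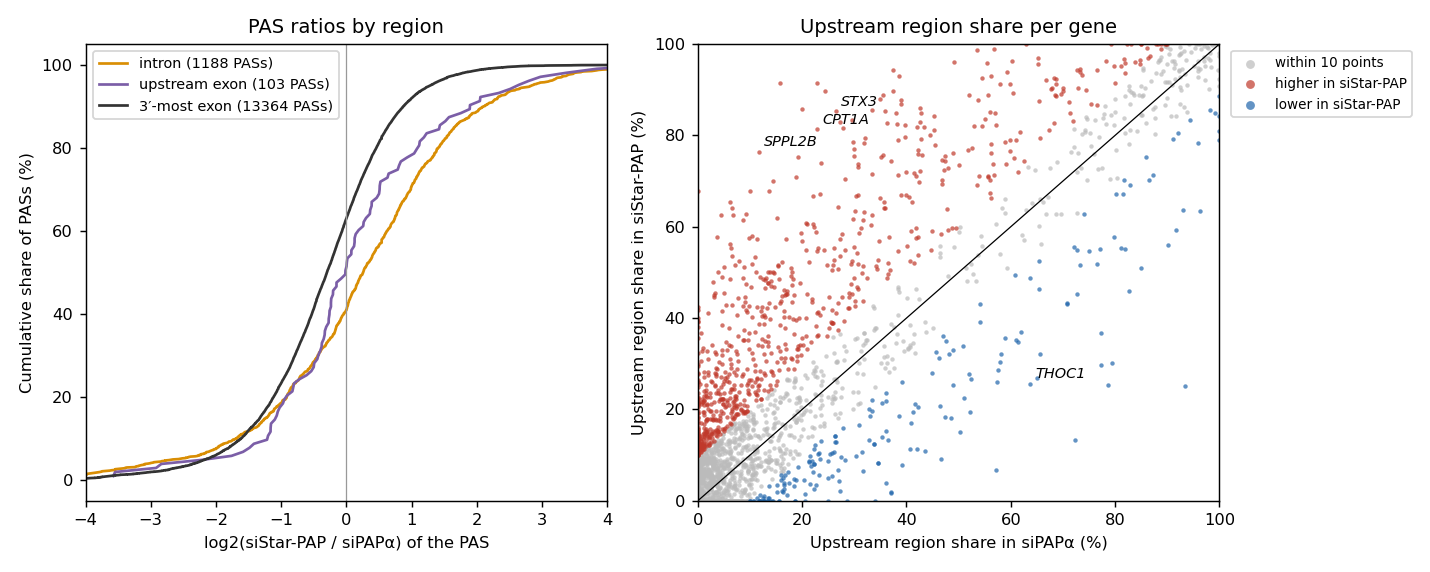
Left, cumulative share of PASs (%) by log2 ratio of siStar-PAP to siPAPα for PASs in introns, upstream exons and 3′-most exons. Right, share of the reads of a gene at upstream PASs (%) in siStar-PAP against siPAPα for 2545 genes, coloured where they differ by 10 points or more. The intronic curve lies to the right of that of 3′-most exons over most of its range, with medians of 0.26 and −0.30, and 782 genes lie above and 196 below the diagonal band.

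The bases around the PASs were read from GRCh37, whose chromosomes are those of hg19. Signals were searched on the transcribed strand only, in the last 40 bases up to the PAS. AATAAA was present at 58.6% of all tested PASs, 46.4% of those higher in siStar-PAP and 62.1% of those lower. ATTAAA without AATAAA was at 16.9%, 17.1% and 17.0%, and neither signal at 24.5%, 36.5% and 20.9%. The shares of AATAAA among higher and lower PASs lay on either side of that of all tested PASs. In the region from −100 to −41, ATA was at 56.1% of all, 50.9% of higher and 61.2% of lower PASs, TGTA at 39.1%, 33.6% and 45.0%, and GGGG at 13.7%, 17.8% and 9.83%. ATA and TGTA can overlap. Base composition moved with these: the median GC content of the 200 bases around the PAS was 37% for all, 38.5% for higher and 35.5% for lower PASs, and the median log2 ratio was −0.45 for the 3664 PASs of lowest GC content and −0.08 for the 3664 of highest. The part of GC content in the motif differences was not tested. In 3′-most exons alone the AATAAA shares were 58.9%, 45.0% and 62.3%.

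A second contrast was built from libraries outside the direct comparison: the log2 ratio of the batch 2 siStar-PAP library to its siCtrl minus that of siPAPα+γ to its siCtrl. The siPAPα+γ cells also lack PAPγ, batch 2 used another protocol, and TUT1 had 6 reads in the batch 2 siCtrl and 4 in its siStar-PAP library, too few to show the knockdown there. Levels also differed between the protocols, as GAPDH had 305 and 366 reads in batch 2. Of 6593 genes, each taken relative to the median, 531 were more than 2-fold higher in the direct comparison, and 413 of them (77.8%) lay above the median in the second contrast. Of 667 lower genes 502 (75.3%) lay below it, where 50.0% of all genes lay on each side. Past 2-fold in both were 217 higher and 237 lower genes, 40.9% and 35.5% of those called in the direct comparison, where 14.4% and 13.7% of all genes passed 2-fold in the second contrast. Across the 6593 genes, which are not independent replicates, Pearson's r was 0.38 and Spearman's rho 0.37.

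The components of the second contrast did not contribute alike. In siPAPα+γ against its siCtrl, 434 of the 531 higher genes (81.7%) lay below the median and 447 of the 667 lower genes (67.0%) above it. In siStar-PAP against siCtrl of batch 2, 254 of the higher genes (47.8%) lay above and 407 of the lower genes (61.0%) below. The higher genes of the direct comparison therefore had no like displacement in the second Star-PAP knockdown. For the siPAPα side the second library was siPAPα+γ, and there was no second library of PAPα knockdown alone.

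With a minimum of 200 reads per library pair, a limit that leaves out MMP24 and MORF4L1, the largest differences in both were those of ARMC5, KIAA0284, TAF15, the splicing factor SRSF11, the mitochondrial carrier SLC25A12, RPLP0, the spindle protein TACC3 and CEP95 among the lower ones. ARMC5 had a second contrast of −4.83 relative to the median, with 2754 reads in siPAPα+γ, and TAF15 one of −2.46. Levels of several lower genes differed widely between siCtrl and the batch 2 siCtrl. KIAA0284 was at 15.4 and 7628.5 RPM, SLC25A12 at 40.6 and 1399, RPLP0 at 1.99 and 144, and ARMC5 at 16.1 and 283. TAF15 (55.9 and 72.4 RPM) and SRSF11 (177 and 86.6) differed less. The cause was not tested. Among the higher ones were CCDC85B (3.47), the ETS factor ETV4 (2.86), SENP3 (2.48), RRP1B (2.40), the histone variant H2AFJ (3.67), PPP1R7 (2.14), AKT1S1, an inhibitor of mTORC1 (2.01), and NDUFA1 (3.43). PPP1R7 had 813 and 738 reads in the batch 2 libraries and 1860 in siPAPα+γ. EIF4A1, at −2.03 relative to the median in the direct comparison, was at −0.53 in the second contrast, and AMDHD2 turned from 2.74 to −0.36.

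**Figure D5:**
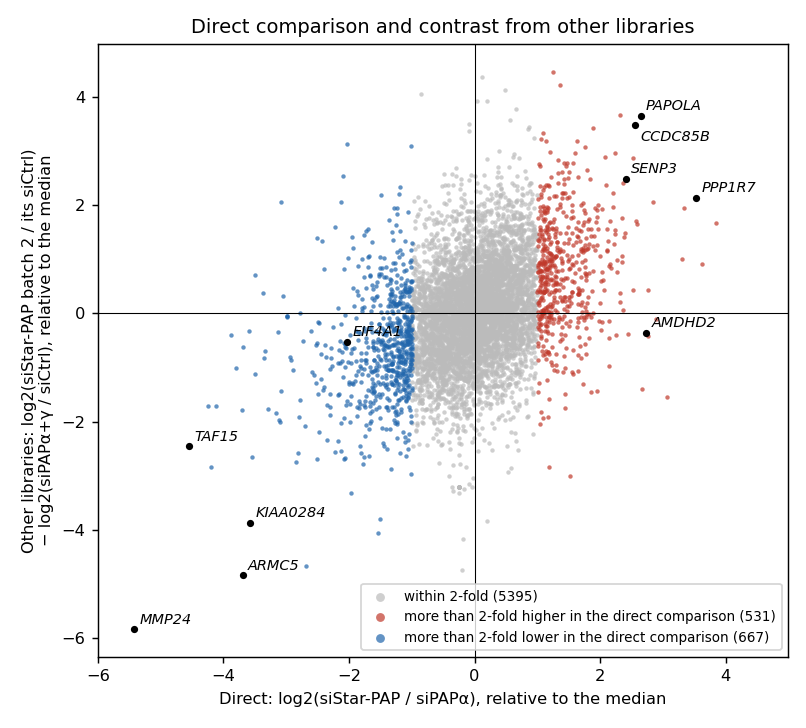
Log2 ratio of siStar-PAP to siPAPα relative to the median (horizontal) against the contrast from the other libraries relative to its median (vertical) for 6593 genes. Coloured points are past 2-fold in the direct comparison, and 413 of 531 red points lie above 0 and 502 of 667 blue points below. ARMC5, KIAA0284 and MMP24 are low and CCDC85B, SENP3 and PPP1R7 high on both axes.

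APA was compared in the same way. Of 448 PASs higher in share and measured in all these libraries, 322 (71.9%) had a positive difference in the second contrast, where 49.8% of all PASs did, and 431 of 570 lower ones (75.6%) had a negative one, against 49.2% of all. The GNL3L site had a share change of −1.60 points in batch 2 siStar-PAP and 58.4 points in siPAPα+γ, and the CPT1A intronic site one of −5.45 and −33.1 points. The SPPL2B intronic site changed by 9.38 and −21.2 points. For the upstream share, 1205 genes had at least 20 reads in each of these libraries. In siPAPα+γ the upstream share fell in 813 of them (67.5%), and the median change was −4.03 points, while in batch 2 siStar-PAP the median change was 0.19 points. Of the 420 genes with a higher upstream share in siStar-PAP than in siPAPα, 321 (76.4%) fell in siPAPα+γ and 251 (59.8%) rose in batch 2 siStar-PAP, where 618 (51.3%) of all 1205 rose. RED of the same PAS pairs had a median of −0.29 in the second contrast over 1750 genes, and 319 of 464 genes (68.8%) with lower distal usage were negative there, against 57.0% of all. In batch 2 siStar-PAP alone RED was positive in 246 of the 464 (53.0%), against 51.5% of all, and in siPAPα+γ alone in 345 (74.4%), against 58.3%. Of 273 genes with higher distal usage 156 (57.1%) were positive in the second contrast, against 43.0% of all. For these genes RED was positive in 127 (46.5%) in batch 2 siStar-PAP alone and in 95 (34.8%) in siPAPα+γ alone. Among the genes named for RED only NIPBL (2.14) and PRDM15 (−0.36) had a value in the second contrast.

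A test across libraries was possible only by a fit with batch as a covariate, in which siStar-PAP and siCtrl have a library in each batch and the lone siPAPα library is assumed to vary as they do. With 1 residual degree of freedom, edgeR's quasi-likelihood test with Benjamini-Hochberg adjustment over 12803 genes gave 102 genes higher and 140 lower in siStar-PAP than in siPAPα at an adjusted p below 0.05. The lower genes with the smallest p were ARMC5 (log2 difference −4.02, adjusted p = 1.9e-15), TAF15 (−4.03, 1.57e-11), KIAA0284 (−3.75, 6.59e-11), SYP (−4.06, 4.77e-10) and MMP24 (−6.39, 1.68e-07). The higher ones were PPP1R7 (3.39, 9.85e-08), TEN1 (3.02, 4.22e-06), CCDC85B (2.73, 7.62e-05), SGK196 (3.06, 0.00013) and FGFBP3 (3.60, 0.000248), which binds fibroblast growth factors. These calls rest on few libraries and on the form of the fit. A second fit added siPAPγ and siPAPα+γ, which leaves 2 residual degrees of freedom. It places siPAPα+γ in batch 1 although its label gives no batch. It also assumes that the effects of PAPα and PAPγ add on the log scale in siPAPα+γ. There edgeR's test gave 0 genes higher and 2 lower at that threshold, and 411 and 650 at an unadjusted p below 0.05. Whether the added libraries or the assumed additivity made the difference was not tested. SYP (adjusted p = 0.00698) and MMP24 (adjusted p = 0.0271) were those 2, and ARMC5 had an adjusted p of 0.177 and PPP1R7 one of 0.23.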

How the data were processed

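The series holds 3′READS or 3′READS+ of 7 HEK293 libraries. The deposited tables give counts of PAS-supporting (PASS) reads for each PAS, not normalized. Per the methods of the study, Bowtie2 in local mode placed the reads on hg19, and the authors kept uniquely mapped reads (MAPQ above 10) with at least 2 untemplated Ts, clustered PASs within 24 nt, and required at least 2 reads and more than 5% of the reads of a gene in at least 1 sample. PCR reads are not independent molecules, so intervals and limits of counts of 0 cover counting error only.

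Here, upstream antisense rows were left out, and counts were summed per gene and divided by the total over sense PASs. A log2 ratio used 3 reads for any count under 3, and genes and PASs were called past 2-fold. Share, RED and upstream share calls were made at 20 points, 1 and 10 points. Named genes were 10 genes taken from the study, the 10 largest ratios each way with 200 reads over both libraries, the 8 largest each way in both contrasts, the 8 PAS shares, 4 RED and 4 upstream shares each way, up to 2 called members of a list each way and the 5 smallest p each way of the fit. Some genes that these rules name are not reported here. The direct comparison was chosen, and the 18 lists, rules and tests were set, with earlier results of these data known. The fit used edgeR 4.0.16 (TMM factors, filterByExpr), with DESeq2 1.42.0 as an alternative, in R 4.3.3. The rest used scipy 1.17.1, pandas 2.3.3, numpy 2.4.6 and matplotlib 3.10.9 under Python 3.11.15. Steps were tested on simulated data: the fit recovered 38 of 200 genes changed 4-fold, with 1 false call among 12803 genes. The simulated counts had no difference between batches and the same dispersion for every gene. The number of false calls in the real data cannot be read from them. Sequences came from GRCh37 and annotation from GENCODE v44 lifted to it. Depth was 2347192 to 16191098 sense reads. Libraries labelled by different knockdowns are single samples, and nothing in the labels ties them to separate cultures, so p-values measure only the spread between these libraries.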

Additional observations from a re-analysis of the deposited data

How the results depend on the processing

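The direct comparison has 1 library per knockdown. No paired analysis was possible because the groups compared share 1 replicate number only, and no replicate could be left out of it. The 159 genes past 2-fold that are named or belong to a list were recomputed under 10 alternatives, 55 of them without a value in at least 1. None changed direction where it had a value, 34 fell within 2-fold under another scaling, an added read or thinning, and 105 missed a 4-fold limit. The counts moved with the settings. TMM factors gave a median log2 of −0.036 over genes with 57.3% of calls lower, and DESeq2 size factors −0.039 and 57.5%, while for PASs TMM gave a median of −0.16. Without a read minimum 1547 genes were higher, and among PASs 9030 were higher and 8480 lower, so that lower calls fell to 48.4% and the median turned to 0.035. At 200 reads genes were 288 higher and 1012 lower, and PASs 482 and 1372. Past 1.5-fold genes were 1509 and 3476 and PASs 2698 and 5373, and past 4-fold genes were 94 and 354 and PASs 327 and 895. PAS shares at 10 points gave 3283 higher, 3227 lower and 3116 genes, and with 200 reads in each library 224, 241 and 310. RED gave a median of −0.30 with the first and last PAS, 509 distal higher and 778 lower at 100 reads, and 705 and 957 past 2. Upstream shares gave 1259 higher and 401 lower at 5 points, and 177 and 40 at 200 reads with a median of 3.74 points. Counts over fewer genes or a wider limit move by construction.

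In the fit, the version with no replicate block, that is without the batch term, gave 0 higher and 0 lower genes in edgeR's test (35 and 27 at an unadjusted p below 0.05), RLE factors 67 and 76, DESeq2 79 and 65 of 4033 genes with an adjusted p, and the fit with siPAPγ and siPAPα+γ 0 and 2. Leaving out each library in turn from the latter gave 0 to 98 higher and 0 to 114 lower genes. It gave 0 in both directions without siStar-PAP or without batch 2 siStar-PAP, 0 and 4 without the batch 2 siCtrl, and between 61 and 98 higher genes without siCtrl, siPAPα, siPAPγ or siPAPα+γ. The cause was not tested. In the second contrast, batch 2 siStar-PAP alone put 47.0% of higher and 59.9% of lower genes on the same side, siPAPα+γ alone 65.1% of lower genes, and 200 reads 80.5% of lower genes. Relative to the median of all genes the medians turned positive for cleavage and polyadenylation factors (0.029), oxidative stress (0.11), the integrated stress response (0.12), cytosolic (0.10) and mitochondrial (0.024) ribosomal proteins and oxidative phosphorylation (0.14). With classes from PAS shares, the difference between higher and lower PASs was 12.0 points for PASs with neither signal and −5.11 points for ATA.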

Other observations

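Upstream antisense PASs, which lie before a gene on the opposite strand, were left out of the values above. Of 2471 such PASs, 251 had more than 50 reads over siStar-PAP and siPAPα, and 61 were more than 2-fold higher and 37 lower in siStar-PAP, with a median log2 ratio of 0.20. They held 0.514% of the reads in siCtrl, and 0.378% (siStar-PAP), 0.333% (siPAPα) and 0.383% (siPAPγ) after knockdown. With 1 library per knockdown these differences were not tested.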
